A study of Homo sapiens with 5 samples.

Results

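Chromatin immunoprecipitation with sequencing (ChIP-seq) maps where a protein sits on DNA, as peaks of read coverage. MED17, MED30 and MYC were each mapped in parental MIA PaCa-2 cells, a widely used line from a human pancreatic carcinoma. MYC was mapped 2 more times in a tet-on derivative that carries a doxycycline-inducible hairpin RNA against MED30 (shMED30), after 3 days of doxycycline (0.5 mg per ml, as the labels give it) and without doxycycline. With 1 library for each of the 5 groups, there are no replicates to compare and p-values are not given. Mediator samples were cross-linked in 2 steps, 20 min in 2 mM disuccinimidyl glutarate followed by 10 min in 1% formaldehyde, whereas MYC samples had only the formaldehyde step. Absence of MYC and a MYC contact that needs the longer fixation therefore cannot be told apart here.

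The subject is the set of promoter regions where both Mediator subunits had a peak and MYC had none, so the regions were selected on the MED17, MED30 and parental MYC peak calls themselves. The MED17, MED30 and parental MYC peak lists were merged wherever peaks shared at least 1 bp, which gave 19126 regions on chromosomes 1 to 22 and X. Of these, 8488 held a peak of both subunits outside stretches of over 2 Mb without a gene, and 6454 of the 8488 lay within 1 kb of the start or end of a protein-coding gene. A parental MYC peak was missing from 1351 of the 6454, and these 1351 are called Mediator-only regions below. The other 5103, called 3-protein regions, are the set they are compared with. The share without MYC was 20.9% of the 6454 regions. Another 671 regions with both subunits and no MYC lay farther than 1 kb from a gene boundary and are not described.

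Mediator is a large complex that carries signals from DNA-bound transcription factors to RNA polymerase II at promoters. MED17 belongs to its head module and helps hold the complex together, and MED30 is a subunit found in animals and absent from budding yeast. MYC is a transcription factor that binds, as a dimer with MAX, the E-box sequence CACGTG, and in many tumours it occupies most active promoters, with those of ribosome and metabolism genes among the strongest. Promoters also carry other short elements, such as the TATA box bound by TBP and the CCAAT box bound by NF-Y.

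The promoter sequences below show the elements whose shares are compared between Mediator-only and 3-protein regions further on. Each line gives the 150 bases before a start of transcription listed by RefSeq (GRCh38.p14, the hg38 assembly), 5′ to 3′ on the gene's strand. Capitals mark the TATA box (TATAAA), the CCAAT box (CCAAT, or ATTGG where it lies on the other strand) and the E-box (CACGTG). The first pair belongs to histone genes, which package newly made DNA and formed the list with the largest share of its genes in the set. H2BC21 lies at chr1:149886683-149886832 (minus strand) and H2AC4 at chr6:26033619-26033768 (minus strand).

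H2BC21: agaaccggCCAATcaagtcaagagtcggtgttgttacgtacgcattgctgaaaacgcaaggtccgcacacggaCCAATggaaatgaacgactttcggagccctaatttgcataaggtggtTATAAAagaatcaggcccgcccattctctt

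H2AC4: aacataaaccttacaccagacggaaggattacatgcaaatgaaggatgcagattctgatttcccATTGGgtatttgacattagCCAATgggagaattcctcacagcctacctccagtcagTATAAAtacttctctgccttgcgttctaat

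H2BC21 had CCAAT boxes beginning 142 and 77 bases before the start and a TATA box beginning 30 bases before it. H2AC4 had CCAAT boxes at 86 and 67 bases and a TATA box at 30 bases. The next pair are immediate early genes, transcribed within minutes of a growth signal. FOS lies at chr14:75278678-75278827 (plus strand) and JUNB at chr19:12791336-12791485 (plus strand), and both had a TATA box, at 33 and 31 bases before the start.

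FOS: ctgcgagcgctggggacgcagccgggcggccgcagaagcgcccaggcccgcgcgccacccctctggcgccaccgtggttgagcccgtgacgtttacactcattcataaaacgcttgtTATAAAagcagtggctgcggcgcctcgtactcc

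JUNB: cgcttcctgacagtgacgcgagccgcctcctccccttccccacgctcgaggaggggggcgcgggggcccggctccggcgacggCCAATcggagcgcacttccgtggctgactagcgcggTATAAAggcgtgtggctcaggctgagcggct

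CCNB2 encodes cyclin B2 and CDC20 an activator of the anaphase-promoting complex, and both act in mitosis. Their windows, at chr15:59104996-59105145 (plus strand) and chr1:43358831-43358980 (plus strand), held 3 and 2 CCAAT boxes.

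CCNB2: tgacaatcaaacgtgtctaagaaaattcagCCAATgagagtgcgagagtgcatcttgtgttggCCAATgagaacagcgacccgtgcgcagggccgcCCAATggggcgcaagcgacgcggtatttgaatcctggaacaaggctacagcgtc

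CDC20: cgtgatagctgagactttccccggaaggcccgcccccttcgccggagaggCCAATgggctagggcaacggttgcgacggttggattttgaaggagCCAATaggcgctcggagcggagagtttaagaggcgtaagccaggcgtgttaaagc

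ZNF708, a zinc finger gene at chr19:21329411-21329560 (minus strand), held 1 CCAAT box. SDC4, which encodes the cell surface proteoglycan syndecan-4 and lies at chr20:45348425-45348574 (minus strand), held none of the 3 elements and shows a promoter of the set without them. LDHA, the lactate dehydrogenase gene at chr11:18394413-18394562 (plus strand), is shown for contrast. It lies at a 3-protein region and had an E-box beginning 87 bases before the start. These windows were chosen after the values were seen.

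ZNF708: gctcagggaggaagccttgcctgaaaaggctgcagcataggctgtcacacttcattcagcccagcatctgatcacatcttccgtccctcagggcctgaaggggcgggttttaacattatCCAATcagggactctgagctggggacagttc

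SDC4: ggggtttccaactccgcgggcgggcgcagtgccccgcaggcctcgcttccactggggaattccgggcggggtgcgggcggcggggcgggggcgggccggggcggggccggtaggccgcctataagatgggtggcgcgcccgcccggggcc

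LDHA: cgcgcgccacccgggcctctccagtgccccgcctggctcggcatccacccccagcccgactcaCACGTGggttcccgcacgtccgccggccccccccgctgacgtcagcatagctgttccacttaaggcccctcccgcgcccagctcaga

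The strength of each peak is given as the authors' fold enrichment. It is the ratio of fragments at the summit to the local background, with a constant added to both. Folds of different lists are not on a common scale, so the subunits are set against each other by the percentile of a fold within its own list. In Mediator-only regions the median MED17 fold was 5.03, with a 95% interval of the median of 4.95 to 5.09 and a range of 2.44 to 13.6. In 3-protein regions it was 5.36 (interval 5.31 to 5.40). The median MED30 fold was 4.82 (4.76 to 4.90, range 2.48 to 18.6) in Mediator-only regions and 5.17 (5.12 to 5.21) in 3-protein regions. Both medians were thus a little lower in the Mediator-only regions, and the ranges overlapped almost fully. In percentiles, Mediator-only regions sat at the middle of each list, at a median of 51.6 in the MED17 list and 50.1 in the MED30 list, against 61.1 and 60.3 in 3-protein regions. Mediator-only regions were also narrower, at a median of 971 bp against 1226 bp. This difference is at least partly built in, since 3-protein regions were merged with their MYC peaks. Since MED17, MED30 and parental MYC peaks chose the regions, these values are descriptions without a test, and intervals here cover counting error only and treat regions as independent.

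**Figure D1:**
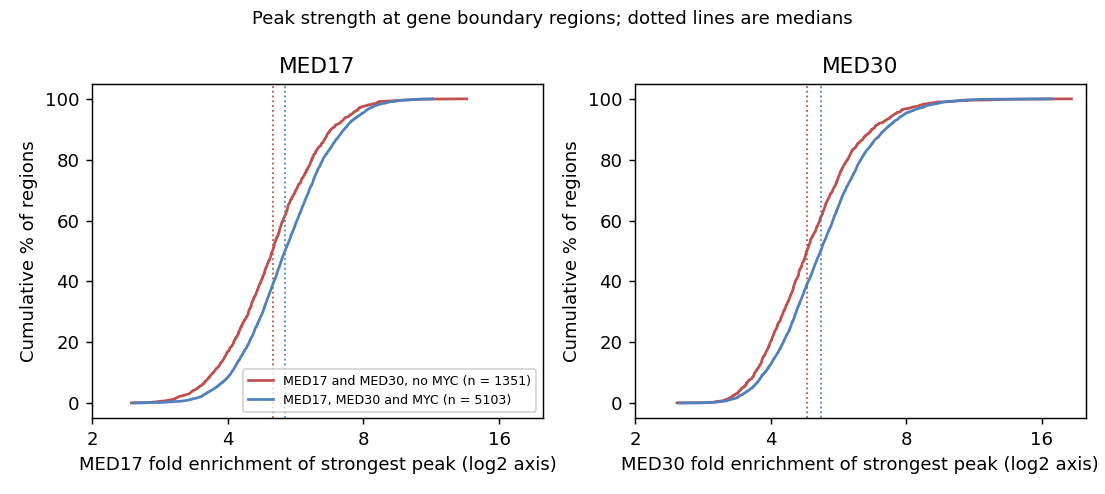
Cumulative share of regions (percent) by fold enrichment of the strongest MED17 peak (left) and MED30 peak (right), as a ratio to local background on a log2 axis, for Mediator-only regions (red) and 3-protein regions (blue), with medians as dotted lines. The medians are 5.03 against 5.36 for MED17 and 4.82 against 5.17 for MED30, and the 2 distributions overlap over nearly their whole range.

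The share of regions without MYC was highest where the Mediator peaks were weakest. When the 6454 regions were ordered by the mean of their MED17 and MED30 percentiles and split into 10 groups of 645 or 646 regions, 33.9% of the weakest group lacked a MYC peak (exact 95% interval 30.3 to 37.7%). In the strongest group the share was 13.5% (10.9 to 16.3%). The strongest group nevertheless held 87 Mediator-only regions. The 2 subunits' folds were only loosely related across Mediator-only regions, with a Spearman correlation of 0.192 over 1351 regions, against 0.201 over 5103 3-protein regions. Both folds come from the same locations, so these values are given as a description.

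In the Mediator-only regions MED17 peaked just inside the gene and MED30 close to its start. Of the 1351 regions, 1140 had a gene with a start in the RefSeq promoter table, and 1093 of these (95.9%, interval 94.6 to 97.0%) lay within 1 kb of such a start. The MED17 summit lay at a median of 175 bp downstream of the start (interval 164 to 185 bp, n = 1077), and the MED30 summit at -4 bp (-11 to 3 bp). Where the 2 summits had to lie within 250 bp of each other, the MED30 median was 23 bp (11 to 30 bp). In 3-protein regions the medians were 184 bp for MED17 (179 to 189 bp, n = 4169) and -9 bp for MED30 (-13 to -5 bp, n = 4163), and the MYC summit lay at 15 bp. Along the direction of the gene, MED17 lay downstream of MED30 in 795 of 1079 Mediator-only regions (73.7%, 70.9 to 76.3%). The same order held in 3136 of 4185 3-protein regions (74.9%, 73.6 to 76.2%). The medians of regions with and without MYC thus differed by 9 bp for MED17 and 5 bp for MED30.

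**Figure D2:**
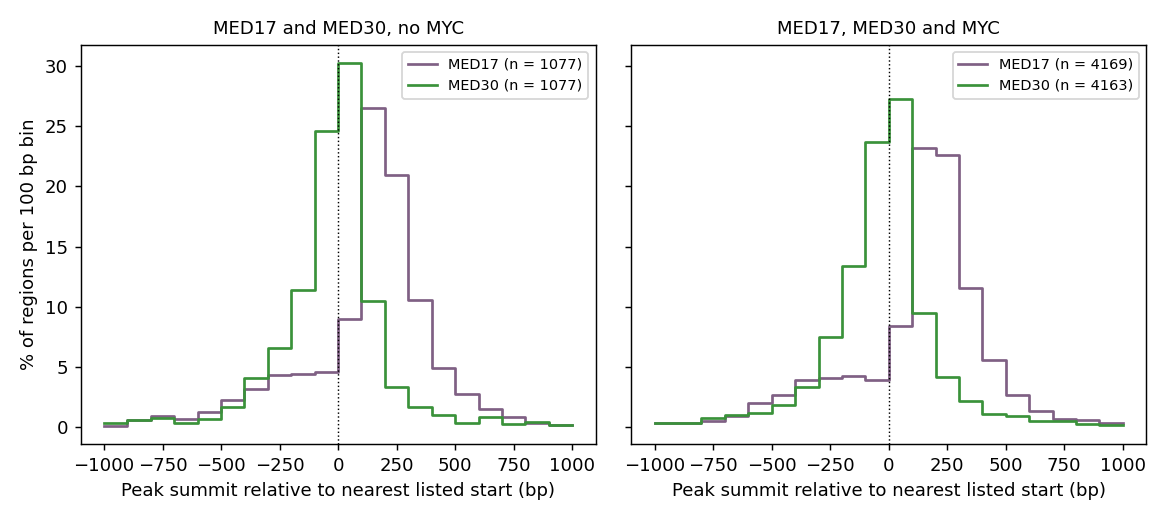
Position of the MED17 and MED30 summits relative to the listed start of transcription (bp, positive values inside the gene), as the percent of regions per bin of 100 bp, for Mediator-only regions (left) and 3-protein regions (right). MED17 has its median 175 bp inside the gene in Mediator-only regions and 184 bp in 3-protein regions, and the MED30 medians are -4 bp and -9 bp.

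Other features of position differed little between the sets. Intervals nevertheless did not overlap for long noncoding RNA genes, for a listed start inside the region and for the distance between summits. Starts on both strands were counted at regions with a gene in the promoter table. They lay within 1 kb of 12.2% of 1140 Mediator-only regions (10.3 to 14.2%) and of 14.6% of 4349 3-protein regions (13.6 to 15.7%). At the same regions, a listed start lay inside the region in 89.6% (87.7 to 91.4%) and 94.0% (93.2 to 94.7%), where 3-protein regions were also the wider. A long noncoding RNA gene began or ended within 500 bp of 19.8% of Mediator-only regions (17.7 to 22%), against 23.3% (22.2 to 24.5%). The median length of the genes at Mediator-only regions was 27.2 kb, against 27.3 kb at 3-protein regions and 24.2 kb for all protein-coding genes. The summits of the 2 subunits were 220 bp apart at the median in Mediator-only regions (208 to 233 bp) and 244 bp apart in 3-protein regions (237 to 251 bp).

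By mean percentile, the 2 strongest Mediator-only regions lay beside small nuclear RNA genes. Another of the 20 strongest, at TMEM107 with a mean percentile of 95.5, lay beside a small nucleolar RNA gene. The region beside IGBP1C on chromosome 17 (58658900 to 58659752, hg38) had the highest mean percentile, with a MED17 fold of 13.6 and a MED30 fold of 18.6. The annotation places a small nuclear RNA gene, LOC124904122, within 500 bp of it. The region beside TAF12 on chromosome 1 (28648164 to 28649096) had folds of 11.3 for MED17 and 15.2 for MED30, and lies within 500 bp of RNU11, the gene for the U11 RNA of the minor spliceosome. The region beside TMEM107 on chromosome 17 (8173240 to 8174153) had folds of 7.27 and 13.7 and lies within 500 bp of SNORD118, which encodes the U8 RNA used in ribosomal RNA processing. In these 3 regions the number of fragments at the MED30 summit was 232, 214 and 146, against a median of 19 over all Mediator-only regions, while at the MED17 summit it was 95, 97 and 53, against a median of 22. None of the 3 regions had a listed start of its named protein-coding gene within 1 kb. Small nuclear RNA genes lay within 500 bp of 2 Mediator-only regions (0.148%) and 8 3-protein regions (0.157%), so their shares were nearly equal. Small nucleolar RNA genes lay within 500 bp of 2 (0.148%, 0.0179 to 0.534%) and 32 (0.627%, 0.429 to 0.884%). A tRNA gene lay within 500 bp of 10 Mediator-only regions (0.740%, 0.356 to 1.36%) and of 17 3-protein regions (0.333%, 0.194 to 0.533%).

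Other regions among the 20 strongest lay at genes of varied function. AARS2, the mitochondrial alanyl-tRNA synthetase, had a MED17 fold of 10.2 and a MED30 fold of 8.85, and RFX1, a transcription factor, had 10.5 and 8.54. SDC4 had a MED17 fold of 7.30, at percentile 91.9, and a MED30 fold of 12.8, at percentile 99.2. UBB, a polyubiquitin gene, had 7.23 for MED17 and 7.80 for MED30, and a region shared by MAP2K4, a kinase of the JNK pathway, and ZNF18 had 8.56 and 7.92. Further regions among the 20 strongest lay at TMBIM6, LGMN, TJAP1, STXBP3, CABYR, ERICH6, CYTH2, LRPAP1, H4C3, MSRB2 and ZNF708, with MED17 folds of 6.91 to 8.64 and MED30 folds of 6.95 to 12.3. All 20 had no peak in the parental MYC list, although a parental MYC peak lay 157 bp from the CYTH2 region and 339 bp from the RFX1 region.

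In single regions the 2 subunits could stand far apart in rank. In regions chosen after their values were seen, EREG, which encodes the growth factor epiregulin, had a MED30 fold of 7.70, at percentile 93.9, and a MED17 fold of 3.55, at percentile 9.19. CRISPLD2 had a MED30 fold of 9.28, at percentile 97.5, and a MED17 fold of 3.97, at percentile 19.1. The opposite order was seen at CRY1, a repressor of the circadian clock, with a MED17 fold of 8.08, at percentile 95.9, and a MED30 fold of 3.72, at percentile 14.3. SYDE1 had a MED17 fold of 8.56, at percentile 97.2, and a MED30 fold of 3.41, at percentile 7.08.

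Genes were counted next. A gene was counted at a region if its start or end lay within 1 kb, which gave 1623 genes at Mediator-only regions, or 8.13% of the 19974 protein-coding genes, and 6206 genes (31.1%) at 3-protein regions. There were 93 genes at both. Of the 1354 genes at Mediator-only regions with a start in the promoter table, 1235 (91.2%) had their own start within 1 kb. The 8.13% and 31.1% are the background for the counts that follow, and no list was tested for enrichment. Both are shares of all protein-coding genes, including those with neither kind of region, so a list can exceed both.

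The replication-dependent histone genes stood far from that background. They supply histones while DNA is copied, lie in clusters on chromosomes 6 and 1, and their mRNAs end in a stem-loop in place of a poly(A) tail. Of 69 genes with such names, 41 (59.4%, 46.9 to 71.1%) lay at Mediator-only regions, 15 (21.7%, 12.7 to 33.3%) at 3-protein regions and 13 at neither. By class, Mediator-only regions took 4 of 6 linker histone H1 genes, 11 of 17 H2A, 10 of 18 H2B, 7 of 13 H3 and 9 of 15 H4 genes. The 41 genes lay in 31 regions, 28 of them on chromosome 6 and 3 on chromosome 1, and genes that face each other share a region, so the counts are not independent. The widest Mediator-only region, 3024 bp, spanned H2AC18 and H3C14, and the next, 2655 bp, spanned H2AC20, H2AC21 and H2BC21; CYP27C1, no histone gene, followed with 2604 bp. The count of 41 genes became 23 when the MED17 and MED30 summits had to lie within 250 bp, which left 761 regions in the set, and 5 with the upper 50% of each Mediator list by fold, which left 394. Histone gene copies are near-identical, and the handling of reads that map to several places is not stated in any source at hand, so values of single histone genes are uncertain.

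MED30 stood higher in its list than MED17 at these histone regions. Over the 31 Mediator-only histone regions the MED30 fold ran from 2.48 to 12.3 with a median of 5.44, at percentile 67.2, and the MED17 fold from 2.53 to 6.91 with a median of 3.99, at percentile 19.9. The MED30 percentile was the higher of the pair in 26 of 31 regions (83.9%, 66.3 to 94.5%). Among the other 1320 Mediator-only regions it was the higher in 646 (48.9%, 46.2 to 51.7%). The fragments at the summit, which do not divide by the local background, were more for MED30 than for MED17 in all 31 histone regions, with medians of 61 and 32. In the other Mediator-only regions the medians were 19 and 22, and the genome-wide background was close in the MED30 and MED17 libraries, at 1.65 and 1.60 fragments. H4C3 had a MED30 fold of 12.3 and a MED17 fold of 6.91, H4C8 8.33 and 5.09, and the region of H3C1 and H4C1 6.59 and 5.43. H2AC4, whose promoter is printed above, had 5.27 for MED30 and 3.27 for MED17. The 9 histone regions with all 3 proteins showed the same order in 9 of 9, with a median MED30 percentile of 89.7 and MED17 percentile of 30.6, so the order was not limited to regions without MYC.

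**Figure D3:**
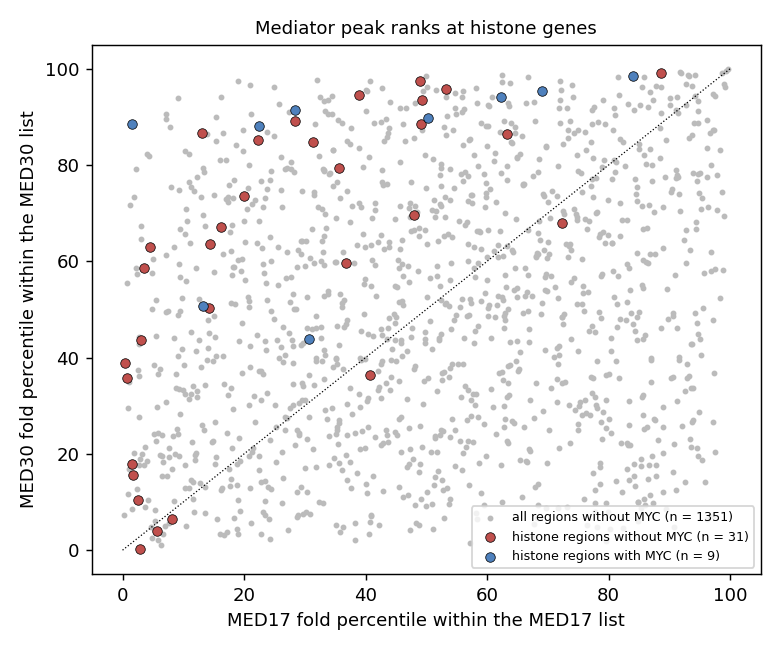
Percentile of MED30 fold within the MED30 list (vertical) against that of MED17 fold within the MED17 list (horizontal), for the 31 Mediator-only histone regions (red), the 9 histone regions with all 3 proteins (blue) and all 1351 Mediator-only regions (grey), with the line of equal percentiles dotted. MED30 lies above MED17 in 26 of the 31 Mediator-only regions, with medians of 67.2 and 19.9, and in 9 of the 9 with all 3 proteins.

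Genes that answer growth signals were the next to be counted. Of 29 immediate early and AP-1 genes, 6 lay at Mediator-only regions (20.7%) and 15 at 3-protein regions, 1 of them at both. MCL1, an anti-apoptotic protein, had a MED17 fold of 6.60 and a MED30 fold of 8.57. KLF2, a zinc finger factor, had 4.96 and 8.97, FOS, a subunit of AP-1, 4.18 and 8.53, and BTG1, an anti-proliferative factor, 5.34 and 7.41. FOSB, with 2.87 for MED17 and 5.63 for MED30, and JUNB, with 3.56 and 4.80, are named after their values were seen. The MED30 percentile was higher than the MED17 percentile in 6 of these 6 regions, against 672 of all 1351 Mediator-only regions (49.7%), and the median MED30 fold of 7.97 compares with 4.82 over all Mediator-only regions. Among 19 genes of MAP kinase phosphatases and ERK feedback, Mediator-only regions took 4 and 3-protein regions 7. These 4 were ETV5 (MED17 5.22, MED30 6.48), DUSP5 (4.07 and 5.67), PHLDA1 (3.00 and 6.03) and EPHA2 (4.39 and 4.69). The MED30 percentile was the higher of the pair in 4 of 4. The order was not the same in every list. At all 10 Mediator genes of the set, named in part below, the MED17 percentile was the higher of the pair.

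Upstream signalling genes were counted as well. Of 30 genes of RAS, ERK and PI3K signalling, 7 lay at Mediator-only regions (23.3%) and 18 at 3-protein regions (60.0%), 2 of them at both. Among the 23 with either kind of region, the 7 made up 30.4% (13.2 to 52.9%). BRAF, a kinase that RAS activates, had 5.58 for MED17 and 5.41 for MED30, and the receptor ERBB3 had 5.49 and 4.94. MTOR, a kinase downstream of PI3K, had 5.97 for MED17 and 4.06 for MED30. Of 22 NF-kB targets, 5 lay at Mediator-only regions and 9 at 3-protein regions, 2 of them at both. NFKBIA, the inhibitor that NF-kB induces against itself, had 4.91 and 5.41, RELB 6.26 and 5.07, CXCL1 5.25 and 4.59, NFKBIE 4.28 and 4.82, and SOD2 4.54 and 3.78. Interferon and MHC class I genes were at Mediator-only regions in 5 of 35 (B2M, IRF3, IFI6, IFIT1 and IFNAR2) and at 3-protein regions in 9. B2M, the light chain of MHC class I, had 6.61 for MED17 and 5.62 for MED30.

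Genes of cell identity and adhesion also had members. The mesenchymal list was the only one of the 30 apart from histones and olfactory receptors with more genes at Mediator-only than at 3-protein regions, 4 against 3 of 17. ZEB1, a repressor of epithelial genes, had 5.20 for MED17 and 5.99 for MED30, CD44 had 4.59 and 5.62, ITGA5, the fibronectin receptor chain, 6.60 and 3.81, and AXL, a receptor tyrosine kinase, 4.03 and 4.90. Integrin, adhesion and actin genes numbered 7 of 30 at Mediator-only regions and 12 at 3-protein regions, among them SDC4 and ITGAV, with 6.13 for MED17 and 5.57 for MED30. Of the TGF-beta pathway 3 of 23 lay at Mediator-only regions (SKI and BMPR2 among them) and 6 at 3-protein regions. Of 22 YAP and TEAD pathway genes the counts were 2 (STK4 and AXL) and 10. Promoters of the epithelial marker KRT19, the mesenchymal marker ZEB1 and COL1A2, in the fibroblast list, were in the set. Of the markers checked, both Mediator subunits had a peak, with or without MYC, at 3 of 5 epithelial, 2 of 4 mesenchymal and 2 of 5 fibroblast genes, and at 0 of 5 acinar, 0 of 4 islet and 0 of 4 immune genes.

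Cell division and the transcription machinery were split between the sets. Of 37 cell cycle and mitosis genes, 9 lay at Mediator-only regions (24.3%) and 14 at 3-protein regions (37.8%). CDC20 had 6.33 for MED17 and 7.89 for MED30, CCNB2 7.04 and 4.76, CENPA, the centromeric histone H3, 6.25 and 4.54, and RB1, the retinoblastoma protein, 5.74 and 5.21. The RB1 region had no listed RB1 start within 1 kb. Of 33 Mediator genes, 10 lay at Mediator-only regions (30.3%, 15.6 to 48.7%) and 15 at 3-protein regions (45.5%). Among the 25 with either kind of region, the 10 made up 40% (21.1 to 61.3%). MED29 had 7.44 for MED17 and 7.42 for MED30, in a region it shares with PAF1, an elongation factor subunit, and SAMD4B. MED31 had 8.16 and 5.93, MED12, of the kinase module, 7.99 and 4.82, and MED25 5.85 and 4.79. Of 29 general transcription factor genes, 5 lay at Mediator-only regions and 15 at 3-protein regions, 1 of them at both. GTF2B, which encodes TFIIB, had 5.14 for MED17 and 8.02 for MED30, and TBP, the TATA-binding protein, 4.43 and 5.32. Among 38 chromatin regulators the counts were 5 and 19, with SMARCB1, of the SWI/SNF remodeller, at 9.37 for MED17 and 4.90 for MED30, and the acetyltransferase EP300 at 6.02 and 5.51.

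Stress, membrane and metabolic genes had fewer genes at Mediator-only than at 3-protein regions in every list counted, as did all genes (8.13% against 31.1%). Of 22 integrated stress and unfolded protein response genes, 3 lay at Mediator-only regions and 13 at 3-protein regions. The 3 were PPP1R15A, a phosphatase subunit that restores translation after stress, with 6.08 for MED17 and 6.43 for MED30, DDIT4, an inhibitor of mTORC1, with 4.74 and 6.86, and SESN2, with 3.79 and 4.66. The counts were 2 and 13 of 22 for p53 targets (DDB2 and SESN2), 1 and 13 of 20 for heat shock and oxidative stress (HMOX1), 1 and 11 of 21 for hypoxia (KDM4B), and 1 and 7 of 19 for the circadian clock (CRY1). Membrane traffic had 8 and 26 of 40 genes, with SAR1B, a GTPase of the vesicle coat COPII, at 7.66 for MED17 and 6.82 for MED30, and the lysosome and autophagy list 6 and 23 of 34, with the transcription factor TFE3 at 7.19 and 6.02. Ubiquitin ligases and deubiquitinases had 3 (BTRC, CBL and HUWE1) and 26 of 35, cholesterol and fatty acid synthesis 2 (NSDHL and ACACA) and 16 of 25, and solute carriers 22 and 116 of 379. SLC35B1 was the strongest of the solute carriers, with 8.25 for MED17 and 5.62 for MED30.

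The genes of the ribosome were nearly absent from the Mediator-only regions. Of 79 cytosolic ribosomal protein genes, 1 (1.27%, 0.0320 to 6.85%) lay at a Mediator-only region and 77 (97.5%) at 3-protein regions. The exception, RPL27A, also lay at a 3-protein region, and its listed start was not within 1 kb of the Mediator-only one, which had folds of 2.83 for MED17 and 3.79 for MED30. None of 32 ribosome biogenesis genes lay at a Mediator-only region, which allows a share of up to 10.9%, and 27 (84.4%) lay at 3-protein regions. Mitochondrial ribosomal protein genes were at Mediator-only regions in 8 of 77 (10.4%), and at 3-protein regions in 50 (64.9%), with MRPL9 at 4.78 for MED17 and 6.62 for MED30. Neither set held any of 16 pancreatic acinar genes. Of 392 olfactory receptor genes, silent in most tissues, 1 (OR2V2, with 4.88 for MED17 and 4.25 for MED30) lay at a Mediator-only region and 0 at 3-protein regions.

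**Figure D4:**
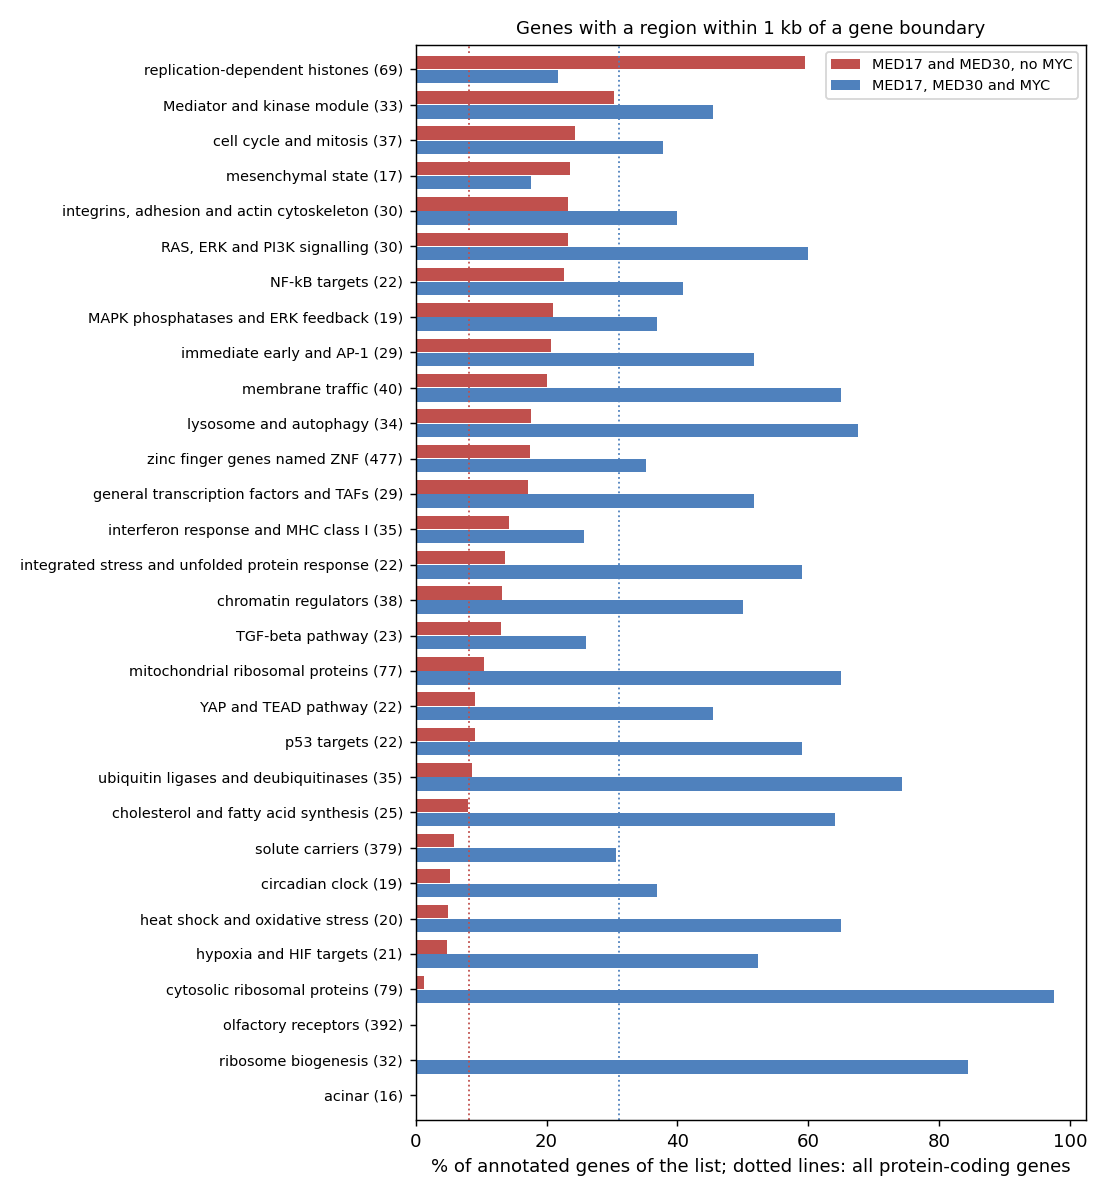
Share of each gene list (percent of its annotated genes, whose number follows the name) at Mediator-only regions (red bars) and at 3-protein regions (blue bars), with the shares of all protein-coding genes, 8.13% and 31.1%, as dotted lines. Histones have 59.4% at Mediator-only regions, and cytosolic ribosomal proteins 1.27% there and 97.5% at 3-protein regions.

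Zinc finger genes formed the most numerous list in the set. Many of them encode DNA-binding repressors with KRAB domains, and about as many lie on chromosome 19 as on all other chromosomes. Of 477 genes named ZNF, 83 (17.4%, 14.1 to 21.1%) lay at Mediator-only regions and 168 (35.2%) at 3-protein regions. On chromosome 19 the counts were 45 of 240 (18.8%, 14.0 to 24.3%) at Mediator-only regions and 60 (25%, 19.7 to 31.0%) at 3-protein regions. On the other chromosomes they were 38 of 237 (16%, 11.6 to 21.3%) and 108 (45.6%, 39.1 to 52.1%). Other genes of chromosome 19 lay at Mediator-only regions in 123 of 1211 (10.2%, 8.51 to 12.0%) and at 3-protein regions in 362 (29.9%). The strongest were ZNF18, whose listed start was not within 1 kb, ZNF708 with 8.15 for MED17 and 6.95 for MED30, ZNF672 with 7.86 and 5.98, and ZNF91, a repressor of retrotransposons, with 6.28 and 7.36. By chromosome, the share of regions with both subunits that lacked MYC was 29.9% on chromosome 19 (143 of 479, 25.8 to 34.2%), and it ran from 12.7% on chromosome 21 to 30.3% on chromosome 13.

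Sequence was not used to choose the regions. It was read in the RefSeq promoter windows, 250 bases before to 50 after a start, of 1151 genes at Mediator-only regions, 4724 genes at 3-protein regions and all 15813 protein-coding genes in the table, with 1 window per gene and motifs searched on both strands. The table holds no gene of chromosome 8. The E-box CACGTG was found in 46 of 1151 windows of Mediator-only regions (4.00%, 2.94 to 5.30%), in 12.8% of windows of 3-protein regions (11.8 to 13.8%) and in 8.54% of all windows (8.11 to 8.99%). The general E-box CANNTG, which includes CACGTG, did not show this difference, with 56.1% at Mediator-only regions, 56.6% at 3-protein regions and 64.9% of all windows. The variant CAGGTG, also one of its forms, was in 14.2%, 16.1% and 20.0%.

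The CCAAT box showed the opposite pattern. CCAAT was in 45.8% of windows of Mediator-only regions (42.9 to 48.7%), 34.6% of those of 3-protein regions (33.2 to 36.0%) and 36.0% of all windows. At least 2 CCAAT boxes were in 20.8% (18.5 to 23.2%), 12.7% and 12.1%. The sites lay at a median of -90.5 bp from the start in Mediator-only regions and -95.5 bp in 3-protein regions. By list, CCAAT was in 31 of 37 histone windows, 40 of 66 zinc finger windows, 11 of 14 solute carrier windows and 5 of 5 cell cycle windows of the Mediator-only regions. It was in 3 of 10 Mediator windows, 2 of 5 immediate early windows, 1 of 6 mitochondrial ribosomal windows, 0 of 7 integrin, adhesion and actin windows and 0 of 4 mesenchymal windows. The printed CCNB2 and CDC20 promoters are among the cell cycle windows.

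TATAAA was in 7.38% of windows of Mediator-only regions (5.94 to 9.05%), 3.66% of those of 3-protein regions (3.14 to 4.24%) and 9.92% of all windows. Of the 85 windows of Mediator-only regions with TATAAA, 27 belonged to histone genes: 27 of their 37 windows (73.0%) held it, 26 held at least 2 CCAAT boxes, and 0 held CACGTG. Without histone genes the share with TATAAA was 5.21% at Mediator-only regions (3.98 to 6.68%) and 3.52% at 3-protein regions (3.02 to 4.09%). These 2 intervals overlapped. The share with CACGTG was then 4.13% (3.04 to 5.47%) and 12.8% (11.9 to 13.8%). That with CCAAT was 44.5% (41.6 to 47.5%) and 34.5% (33.1 to 35.8%). Of the 5 immediate early windows 4 held TATAAA, the printed FOS and JUNB promoters among them.

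The windows of Mediator-only regions were lower in G and C, with a median of 63.3% against 67.3% at 3-protein regions and 62.7% over all windows. The ratio of observed to expected CpG was 0.823 (0.811 to 0.838), against 0.892 and 0.756. Motif shares were therefore also taken within GC tertiles of all windows, from lowest to highest. CACGTG was in 3.45%, 3.13% and 5.56% of windows of Mediator-only regions, against 9.40%, 12.7% and 13.6% of those of 3-protein regions, so the difference held in each tertile. CCAAT was in 55.9%, 47.1% and 37.0%, against 46.1%, 41.4% and 26.4%. The CCAAT intervals overlapped in the lowest tertile (49.7 to 62.1% against 41.8 to 50.4%) and in the middle (42.7 to 51.5% against 39.2 to 43.7%). They did not overlap in the highest (32.2 to 42.1% against 24.6 to 28.2%). TATAAA was in 19.9%, 4.30% and 2.91%, against 10.9%, 3.50% and 2.12%. Its intervals overlapped in the middle tertile (2.71 to 6.43% against 2.72 to 4.43%) and in the highest (1.46 to 5.15% against 1.58 to 2.80%). In the lowest tertile, 52 windows of Mediator-only regions held TATAAA. Histone windows of Mediator-only regions, 27 of them with TATAAA and 31 with CCAAT, had a median GC of 42%, below the lowest tertile's limit of 57%. They were not taken out of these tertiles.

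The remaining elements were as follows. The GC box GGGCGG was in 71.6% of windows of Mediator-only regions, 77.7% of those of 3-protein regions and 57.4% of all windows. The ETS motif CCGGAAG was in 26.1%, 25.6% and 14.0%, the cAMP response element TGACGTCA in 4.00%, 3.90% and 2.53%, and the AP-1 motif TGANTCA in 3.82%, 3.60% and 5.97%. The YY1 motif AAGATGGC was in 5.39%, 7.58% and 3.83%, and the palindromic NRF1 motif in 2.00%, 3.15% and 1.68%. A match is a description of the letters in the window and shows no binding.

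The 2 MYC libraries of the shMED30 line were not used to choose the regions, and they give a second look at MYC there. With doxycycline, 6 of 1351 Mediator-only regions (0.444%, 0.163 to 0.964%) overlapped a MYC peak, and without doxycycline 20 did (1.48%, 0.907 to 2.28%). Of the 5103 3-protein regions, 645 did with doxycycline (12.6%, 11.7 to 13.6%) and 1145 without it (22.4%, 21.3 to 23.6%). Over both sets the shares were 10.1% with doxycycline and 18.1% without. No Mediator-only region had a peak in both libraries, and 26 (1.92%) had one in either. The MYC peaks found there were also lower, with a median fold of 4.08 with doxycycline and 4.69 without, against 5.62 and 6.05 in 3-protein regions.

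The shares were also taken by the strength of MED30. In tertiles of MED30 fold from low to high, Mediator-only regions had a MYC peak with doxycycline in 0.358%, 0.449% and 0.575%, and without it in 1.25%, 2.02% and 1.15%. These rest on 2, 2 and 2 regions with doxycycline and 7, 9 and 4 without, too few to show a trend or its absence. In 3-protein regions the shares were 10.5%, 13.1% and 14.1% with doxycycline and 19.3%, 21.9% and 25.7% without. The 10% of 3-protein regions with the lowest parental MYC fold, 511 regions at 3.53 or less, came closer, with 7 (1.37%, 0.552 to 2.80%) and 18 (3.52%, 2.10 to 5.51%). The shMED30 libraries were shallow: their background, as recovered from fold and p, was 0.186 fragments with doxycycline and 0.310 without, against 2.56 in the parental MYC library, and the part of depth in the shares was not tested. Their lists also started at a q of 0.1, against 0.05 for the parental lists, and a difference between the 2 shMED30 libraries cannot be told apart from their depths.

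**Figure D5:**
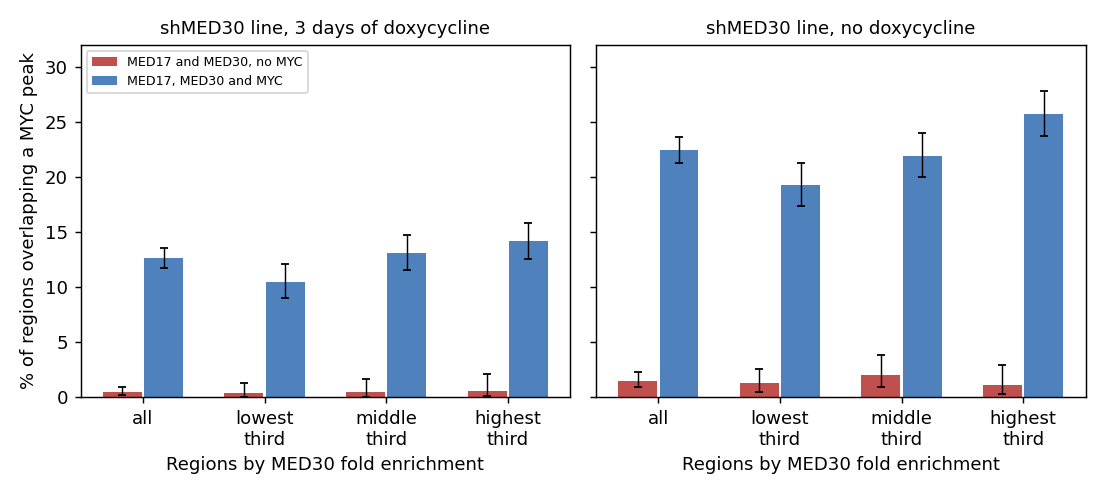
Share of regions (percent, with exact 95% intervals) that overlap a MYC peak of the shMED30 line with and without doxycycline, for Mediator-only (red) and 3-protein regions (blue), all together and in tertiles of MED30 fold. Mediator-only regions lie at 0.358 to 0.575% with doxycycline and 1.15 to 2.02% without, below every tertile of the 3-protein regions.

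Single regions with MYC in the shMED30 line were few. Without doxycycline the highest folds were 5.95 at LCLAT1, 5.69 at EEIG1, 5.40 at RNF122, 5.32 at the region of BTBD19 and DYNLT4, and 5.26 at UHRF2, which encodes a ubiquitin ligase. With doxycycline they were 6.55 at LCOR, a corepressor of nuclear receptors, 4.63 at RNF6, 4.11 at RPAP3, a factor in RNA polymerase assembly, 4.04 at ZNF736 and 4.01 at ZNF440. None of these 10 regions had a peak in the other library. Among histone genes, named here after their values were seen, the region of H2AC13 and H2BC13 had a MYC fold of 5.13 without doxycycline and that of H2AC14 and H2BC14 3.53.

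By the rule, no Mediator-only region overlaps a parental MYC peak. The median distance to the nearest one was 41.4 kb (quartiles 15.5 and 96.9 kb), and it was not set against that of other regions. A parental MYC peak lay within 100 bp of 15 regions (1.11%), within 1 kb of 70 (5.18%) and within 5 kb of 138 (10.2%). The closest, named after their values were seen, were PLIN3 at 7 bp, FAM193A at 8 bp and LYRM7 at 11 bp. On the other side of the rule, the 3-protein regions with the least significant parental MYC peaks lay at IRF1, RAB11FIP1 and PHLDA3, with a −log10 q of 1.44, 1.45 and 1.46 and MYC folds of 2.76, 2.85 and 2.96. The regions just inside the distance limit of 1 kb lay at LY6S, PARVA and KLHL12, with MED17 folds of 4.34 to 6.67 and MED30 folds of 4.70 to 5.43. The nearest regions with both subunits and no MYC beyond it lay 1002 bp from MUC12, 1012 bp from ACTR1A and SUFU, and 1019 bp from SIRT4, with MED17 folds of 6.42, 6.36 and 5.78 and MED30 folds of 7.75, 5.98 and 7.68.

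The MYC gene itself was in the set. Its region on chromosome 8 (127735092 to 127737206) had a MED17 fold of 3.33, at percentile 5.50, and a MED30 fold of 3.99, at percentile 22.7, and no peak in any of the 3 MYC lists. By fragments at the summit it was not low, with 38 for MED17 and 48 for MED30, against medians of 22 and 19 over the set. The MED17 gene lay at a 3-protein region, with a MED17 fold of 6.49, a MED30 fold of 7.82 and a parental MYC fold of 3.13. The MED30 gene had no peak of either subunit or of parental MYC within 1 kb, and a MYC peak of fold 10.3 with doxycycline only. The lists hold no measure of MED30 amount, so the knockdown was not checked. In these bulk libraries a region bound in fewer cells and one bound more weakly in every cell cannot be told apart.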

How the data were processed

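The data are 5 ChIP-seq peak lists of MIA PaCa-2 cells, 1 library per group. Per the submitters' processing notes, the tools were MACS2, Bowtie2, Trim Galore and deepTools, with the build hg38; their versions and the use of an input were not given in the sources used here. Per the labels' protocols, reads were paired and 100 bp long. The deposited lists give each peak's fold enrichment (a ratio to local background), its −log10 p and −log10 q values, and, as another deposited value, the summit position. The q reaches 0.05 in the parental lists and 0.1 in the shMED30 lists.

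From these, regions were merged with Python 3.11.15, pandas 2.3.3, NumPy 2.4.6 and SciPy 1.17.1, and figures drawn with matplotlib 3.10.9. Genes came from RefSeq (GRCh38.p14). Summit pileup and background were recovered from fold and p, matching 99.4% to 99.8% of peaks within 0.002 log10 units; the code was tested on simulated data. Peaks numbered 13172 for MED17, 12040 for MED30, 14331 for parental MYC, 4621 with doxycycline and 7158 without, with median summit pileups of 22, 21, 22, 6 and 8 fragments. Shares carry exact (Clopper-Pearson) 95% intervals. No test was run, since no group has a replicate. Depth in reads is unknown.

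The genes named are those at the 20 strongest regions by mean percentile, up to 4 per list, the 5 regions with the highest MYC fold in each shMED30 library, 3 regions on each side of the distance limit, the 3 widest regions and those with the most genes (EIF6 with MMP24, MED29 with PAF1, and TBC1D22B with TMEM217), and MYC, MED30 and MED17. Of the lists with 5 or fewer genes in the set, some are named in full and others in part. Some genes that these rules take are not reported here. The regions, gene lists and rules were chosen with earlier results of these data known.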

Additional observations from a re-analysis of the deposited data

How the results depend on the processing

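The number of Mediator-only regions, 1351 as reported, was 761 with MED17 and MED30 summits required within 250 bp, and 394 with the upper 50% of each Mediator list by fold; under the other alternatives for the rule the number ran from 1202 to 1490. The share without MYC was 22.5% with summits within 250 bp, 24.7% with a q of at most 0.001 in the 3 parental lists, 15.7% with the upper 50% and 19.8% with no MYC peak within 1 kb. With a q of at most 0.001 in the 3 lists, 3-protein regions had MYC in 13.8% with doxycycline and 24.3% without. With the upper 50% those shares were 14.5% and 25.3%, and Mediator-only regions had MYC in 1.02% with doxycycline. Requiring no peak in any MYC list makes both shares of Mediator-only regions 0 by construction. The share within 1 kb of a listed start was 93.3% with gene boundaries within 2 kb and 100% when starts alone counted, also by construction. TATAAA was in 6.16% of windows of Mediator-only regions (3.85 to 9.26%) and 4.25% of those of 3-protein regions (3.40 to 5.24%) with the upper 50%. These intervals overlapped. The median MED17 fold was 5.85 with the upper 50%. The median MED30 fold was 5.01 with a q of at most 0.001 in 3 lists, 4.95 with it in the Mediator lists and 5.75 with the upper 50%. Histone genes at Mediator-only regions numbered 23 with summits within 250 bp and 5 with the upper 50%, zinc finger genes 49 and 20, cell cycle genes 4 and 2, and Mediator genes 3 with the upper 50%. Stricter lists hold fewer peaks; other causes were not tested. The median MED30 summit of Mediator-only regions, at -4 bp from the start as reported, lay at 23 bp with summits within 250 bp and at 6 bp with the upper 50%, and that of 3-protein regions, at -9 bp as reported, at 20 bp with summits within 250 bp, so its side of the start changed; the MED17 summit lay at 130.5 bp and 139 bp in the 2 sets with summits within 250 bp, against 175 and 184 bp as reported. No paired analysis was possible because each group holds 1 library and no test was made, and for the same reason no library could be left out. What depth limits is the absence of MYC: a MYC peak below the list's threshold is not seen. Settings for windows without histone genes, all listed starts and GC tertiles were chosen after seeing the data.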
